A study of Mus musculus with 11 samples.

Results

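Expression of 10 surface markers that are used to recognise mouse haematopoietic stem and progenitor cells was followed across the orders in which mutant CEBPA and mutant CSF3R were introduced. The genes were Cd34, Ly6a, Procr, Esam, Slamf1, Cd48, Cd27, Eng, Cd93 and Prom1. They were chosen by symbol, and all 10 of 10 were found among the 51912 genes of the count table. The experiment comprised 11 RNA-seq samples of C57BL/6 mouse bone marrow cells that carried a retrovirus expressing a green fluorescent protein constitutively and a second retrovirus, marked by a red fluorescent protein, whose oncogene is expressed after recombination by Cre. CSF3R-only cells (n = 4) carried mutant CSF3R in the constitutive vector and an empty inducible vector. CSF3R-first cells (n = 3) carried mutant CSF3R in the constitutive vector and CEBPA with a mutation of its C-terminal part in the inducible one. CEBPA-first cells (n = 4) carried the same oncogenes with the vectors exchanged. The marrow came from mice with a tamoxifen-activated Cre at the Rosa26 locus, so every group expressed this Cre, and every group was kept for 48 h in serum-containing medium without added cytokines, with 4-hydroxytamoxifen, after sorting for lineage-negative cells positive for both fluorescent proteins. During transduction all cells had also received stem cell factor and interleukins. Both oncogenes were human sequences driven by viral promoters at integration sites that differ from cell to cell, and there was no group without an oncogene. Whether replicates of a group came from separate animals or transductions was not stated, so p-values measure the spread between these samples, which may be technical.

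Haematopoietic stem cells of the mouse are found among marrow cells that lack the antigens of mature lineages and carry KIT and SCA-1, the product of Ly6a. Within that population CD150, encoded by Slamf1, together with EPCR, encoded by Procr, and ESAM enriches for stem cells, whereas CD48 and CD27 mark progenitors that have begun to lose self-renewal. CD34 and the prominin PROM1 are found on progenitors, and endoglin (Eng) and CD93 are shared with endothelium. Several of these proteins are not confined to stem cells: ESAM, CD150, endoglin and EPCR also occur on megakaryocytes, endothelium or myeloid cells.

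All 10 genes had enough reads to be tested. Called differences are those with an adjusted p under 0.05 in the quasi-likelihood test of edgeR, adjusted by the Benjamini-Hochberg method over 15703 genes, and a log2 fold change of at least 1 in size. CEBPA-first cells had lower levels than CSF3R-only cells for 7 of the 10 markers, Cd34, Ly6a, Procr, Esam, Slamf1, Eng and Prom1, and for 0 were they called higher. Among all tested genes, 19.0% were called lower and 8.07% higher in this comparison. The median log2 fold change of the 10 markers was -1.96, beside a median of -0.00 over all tested genes. By adjusted p alone, all 10 differed (8 lower, 2 higher), a criterion that 72.0% of all genes met, and the samples of the groups did not overlap for any of the 10, as for 68.7% of all genes. Fewer cells bearing a marker and less RNA per cell cannot be told apart in such bulk samples.

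The total count per library ranged from 49782847 to 72268346 for CEBPA-first, from 47905747 to 61069929 for CSF3R-first and from 49499527 to 65937530 for CSF3R-only. Levels are given as CPM (counts relative to library size) after TMM scaling, and 3 counts, the number that a count of 0 allows, correspond to 0.0383 to 0.0648 CPM in these libraries, counting error only. The smallest count behind a marker was 15, for Esam in CEBPA-first. CSF3R-first replicate A stood apart from the other replicates of its group: the chi-square of its counts per degree of freedom was 110 against replicate B and 82.2 against replicate C, compared with 24.4 between B and C and 9.95 to 43.0 between replicates of the other groups. Of the 10 markers, replicate A was the lowest of its group for Cd34, Esam, Slamf1, Cd27 and Eng, and the highest for Ly6a, Procr, Cd48 and Cd93.

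**Figure D1:**
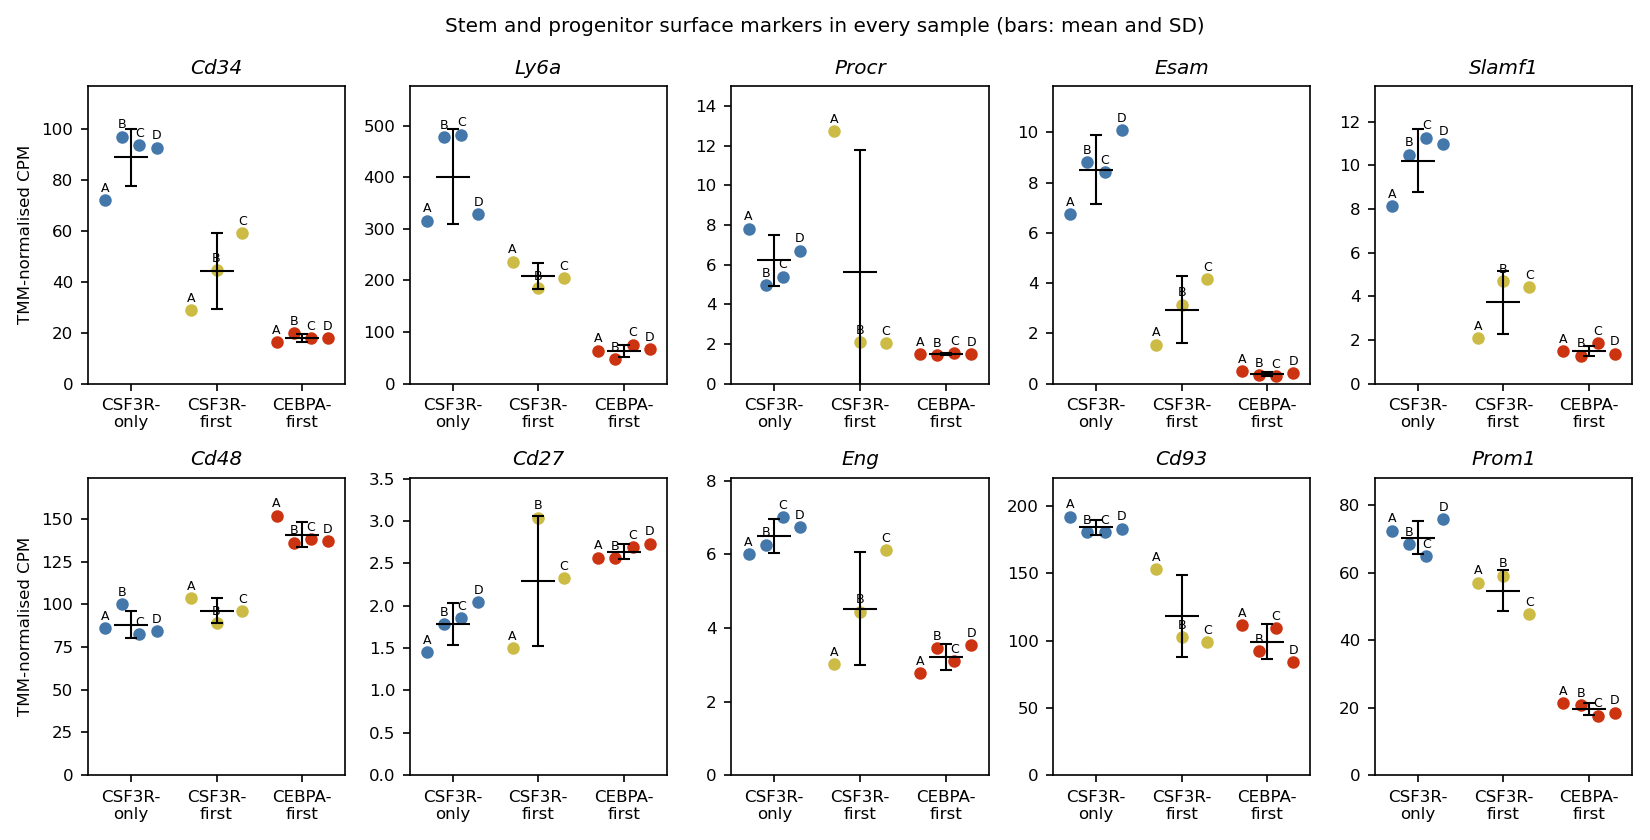
TMM-normalised CPM (vertical axes, from 0, different for each gene) of the 10 markers in every sample of CSF3R-only (blue), CSF3R-first (yellow) and CEBPA-first (red). Letters name replicates, and bars give mean and SD, cut off at 0 for Procr in CSF3R-first. CEBPA-first samples lie below all CSF3R-only samples for 8 markers and above them for Cd48 and Cd27.

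The promoters of the neighbouring genes Slamf1 and Cd48, which differed from CSF3R-only in opposite directions in CEBPA-first, and of Cd34 and Prom1, which fell in CEBPA-first, are shown for context. They run from 250 bases before to 50 bases after a transcription start of RefSeq (GRCm38.p6), 5′ to 3′ on the gene's strand. Of the 10 markers, 7 had a promoter in the table used. Capitals mark matches, on either strand, to the letters of the following motifs: TTNCNNAA for C/EBP proteins, CCGGAA and CAGGAA for ETS factors, TGATAA for GATA factors and TGTGGT for RUNX factors.
Cd34, chr1:194938571-194938870, + strand: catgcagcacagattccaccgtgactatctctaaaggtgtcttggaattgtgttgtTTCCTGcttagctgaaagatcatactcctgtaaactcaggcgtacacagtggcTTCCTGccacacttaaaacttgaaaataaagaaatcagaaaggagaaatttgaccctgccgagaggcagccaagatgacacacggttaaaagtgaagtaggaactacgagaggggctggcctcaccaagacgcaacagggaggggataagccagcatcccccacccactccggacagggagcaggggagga
Slamf1, chr1:171766882-171767181, + strand: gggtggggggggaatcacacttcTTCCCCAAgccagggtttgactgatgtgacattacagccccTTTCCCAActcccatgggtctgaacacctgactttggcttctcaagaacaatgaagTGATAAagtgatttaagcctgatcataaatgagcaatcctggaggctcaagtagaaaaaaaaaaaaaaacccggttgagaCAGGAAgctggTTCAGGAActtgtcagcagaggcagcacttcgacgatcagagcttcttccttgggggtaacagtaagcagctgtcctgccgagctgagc
Cd48, chr1:171681742-171682041, + strand: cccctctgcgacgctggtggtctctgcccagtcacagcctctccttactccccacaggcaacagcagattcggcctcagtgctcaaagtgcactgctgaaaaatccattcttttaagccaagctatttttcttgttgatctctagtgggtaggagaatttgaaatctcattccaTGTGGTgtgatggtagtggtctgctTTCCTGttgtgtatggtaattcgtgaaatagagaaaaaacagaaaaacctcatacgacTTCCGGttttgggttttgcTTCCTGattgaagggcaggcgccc
Prom1, chr5:44101687-44101986, - strand: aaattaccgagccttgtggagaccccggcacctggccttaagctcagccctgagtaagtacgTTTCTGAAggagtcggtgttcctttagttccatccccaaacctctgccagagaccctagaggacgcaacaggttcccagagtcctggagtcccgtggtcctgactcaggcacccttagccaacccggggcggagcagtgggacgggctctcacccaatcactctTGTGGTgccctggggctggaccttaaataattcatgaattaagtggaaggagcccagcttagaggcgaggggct

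The C/EBP letters occurred 3 times in the Slamf1 window, where the match nearest the start overlaps a CAGGAA, once in the Prom1 window shown and 0 times in those of Cd34 and Cd48. Of 32851 promoter windows in the table, 40.7% held at least 1 such match. CAGGAA occurred 2 times each in Cd34, Slamf1 and Cd48, and 30.6% of all windows held it. CCGGAA was found in Cd48 alone of these 4 windows, against 14.9% of all. TGATAA was present in the Slamf1 window and in 9.05% of all, and TGTGGT in those of Cd48 and Prom1 and in 16.8% of all. The STAT letters TTCNNNGAA (8.30% of all windows), the GATA letters AGATAA (11.2%) and the interferon response letters, GAAA repeated after a gap of 2 bases (3.44%), had no match in any of the markers' windows. These matches describe letters, not sites that were shown to be bound.

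The largest difference was that of Esam. This gene (chr9:37528078-37538319 of GRCm38, + strand) encodes an immunoglobulin-domain adhesion molecule of endothelial junctions, platelets and stem cells. It was at 6.74, 8.81, 8.41 and 10.1 CPM in CSF3R-only replicates A to D, at 1.54, 3.14 and 4.16 CPM in CSF3R-first replicates A to C, and at 0.496, 0.341, 0.288 and 0.421 CPM in CEBPA-first replicates A to D. No sample of one group reached the range of another. Esam fell 21.7-fold from CSF3R-only to CEBPA-first (log2 fold change -4.44 ± 0.29 SE, edgeR adjusted p = 4.17e-08), and 182 of the 15703 tested genes (1.16%) had a log2 fold change as low or lower. The CEBPA-first level was also 7.56-fold below that of CSF3R-first (log2 fold change -2.92 ± 0.31 SE, edgeR adjusted p = 1.28e-05). CSF3R-first in turn was 2.87-fold below CSF3R-only (log2 fold change -1.52 ± 0.27 SE, edgeR adjusted p = 0.000859).

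Ly6a (chr15:74994877-74998031, - strand) encodes SCA-1, a small protein held in the membrane by a lipid anchor. Its level was 316, 478, 483 and 329 CPM in CSF3R-only, 236, 185 and 205 CPM in CSF3R-first, and 63.5, 47.3, 75.3 and 66.6 CPM in CEBPA-first. The groups did not overlap, and CSF3R-only replicates A and D lay well below B and C. Ly6a fell 6.36-fold in CEBPA-first against CSF3R-only (log2 fold change -2.67 ± 0.17 SE, edgeR adjusted p = 3.69e-08) and 3.30-fold against CSF3R-first (log2 fold change -1.72 ± 0.18 SE, edgeR adjusted p = 1.08e-05). Between CSF3R-first and CSF3R-only the log2 fold change of Ly6a was -0.95 ± 0.18 SE with an adjusted p of 0.00146, just short of the fold threshold. It was past the threshold without CSF3R-only replicate A (-1.05) or D (-1.03), or CSF3R-first replicate A (-1.04).

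Procr (chr2:155751117-155755471, + strand) encodes EPCR, which binds protein C and presents it to thrombin. In CSF3R-only it was at 7.82, 4.97, 5.40 and 6.71 CPM, in CSF3R-first at 12.7, 2.07 and 2.04 CPM, and in CEBPA-first at 1.49, 1.43, 1.52 and 1.49 CPM. CSF3R-first replicate A was the highest of all 11 samples, at 6.25 times the level of replicate C, while replicates B and C lay between the other groups. Procr fell 4.19-fold in CEBPA-first against CSF3R-only (log2 fold change -2.07 ± 0.49 SE, edgeR adjusted p = 0.00197). Against CSF3R-first the log2 fold change was -1.91 ± 0.52 SE (edgeR adjusted p = 0.00886), but without CSF3R-first replicate A it was -0.47 with an adjusted p of 0.0627. CSF3R-first and CSF3R-only differed by -0.16 ± 0.49 SE on the log2 scale (edgeR adjusted p = 0.826) with replicate A and by -1.60 (adjusted p = 3e-05) without it. The difference turned positive, up to 0.26, without CSF3R-first replicate B or C.

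Slamf1 and Cd48 belong to the SLAM family of immunoglobulin-domain receptors of blood cells and lie 61868 bases apart on chromosome 1. Slamf1 (chr1:171767127-171801184, + strand), encoding CD150, was at 8.12, 10.5, 11.3 and 11 CPM in CSF3R-only, at 2.07, 4.69 and 4.41 CPM in CSF3R-first, and at 1.47, 1.28, 1.84 and 1.37 CPM in CEBPA-first. Its groups did not overlap, although CSF3R-first replicate A came close to the CEBPA-first samples. Slamf1 fell 6.88-fold in CEBPA-first (log2 fold change -2.78 ± 0.23 SE, edgeR adjusted p = 2.72e-07) and 2.74-fold in CSF3R-first (-1.45 ± 0.24 SE, adjusted p = 0.000553), both against CSF3R-only. The step from CSF3R-first to CEBPA-first was -1.33 ± 0.24 SE on the log2 scale (edgeR adjusted p = 0.000859). Of the Slamf1 transcript, 4.50% has near-identical stretches in other genes, so a small part of its reads may be shared.

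Cd48 (chr1:171682009-171705258, + strand) encodes the lipid-anchored ligand of the receptor CD244. It measured 86.0, 99.9, 82.3 and 84.1 CPM in CSF3R-only, 104, 89.0 and 96.1 CPM in CSF3R-first, and 152, 136, 138 and 137 CPM in CEBPA-first. Every CEBPA-first sample exceeded every other sample, and the other groups overlapped. The difference of CEBPA-first from CSF3R-only was 1.60-fold (log2 fold change 0.68 ± 0.07 SE, edgeR adjusted p = 2.89e-06), under the fold threshold despite the small p. Against CSF3R-first the log2 fold change of Cd48 was 0.55 ± 0.08 SE (edgeR adjusted p = 0.000184), and between CSF3R-first and CSF3R-only it was 0.13 ± 0.08 SE (adjusted p = 0.214). Leaving out each sample in turn moved this last value between 0.07 and 0.19 and its adjusted p between 0.515 and 0.0441. The value of 0.19 (adjusted p = 0.0441) came without CSF3R-only replicate B.

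Per kilobase of exon, Cd48 stood at 45.4 ± 8.06 times the level of Slamf1 in CSF3R-only (SD, n = 4), at 157 ± 89.1 times in CSF3R-first (n = 3) and at 498 ± 74.5 times in CEBPA-first (n = 4). The ratio was 259 in CSF3R-first replicate A and 98.3 and 113 in replicates B and C, so each CSF3R-first sample lay between the ranges of the other groups, 37.8 to 54.8 and 388 to 551. Ly6a to Cd48 ran the other way, from 4.50 ± 0.980 in CSF3R-only through 2.13 ± 0.104 in CSF3R-first to 0.443 ± 0.0844 in CEBPA-first.

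The region of chromosome 1 around Cd48 and Slamf1 holds 9 SLAM receptor genes. Slamf9 and Slamf8 lie apart from the others, beyond a gap of 522187 bases after Slamf6. From CSF3R-only to CEBPA-first, 5 of the 9 were called lower and 0 higher, beside 19.0% and 8.07% of all tested genes. Slamf8 had the lowest log2 fold change of the 9, -3.98 (edgeR adjusted p = 3.31e-07). Cd84, a receptor of platelets and myeloid cells next to Slamf1, fell by 1.78 on the log2 scale, Slamf6 fell by 1.32 and Slamf7 fell by 1.13. Cd48 was the only 1 of the 9 with an adjusted p under 0.05 and a positive log2 fold change, while Ly9, at 0.03 (adjusted p = 0.853), differed by less than its error. The SLAM adaptor gene Sh2d1a had no count in any sample, and Sh2d1b1, which encodes another adaptor of these receptors, rose by a log2 fold change of 1.04 (adjusted p = 4.8e-05).

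**Figure D2:**
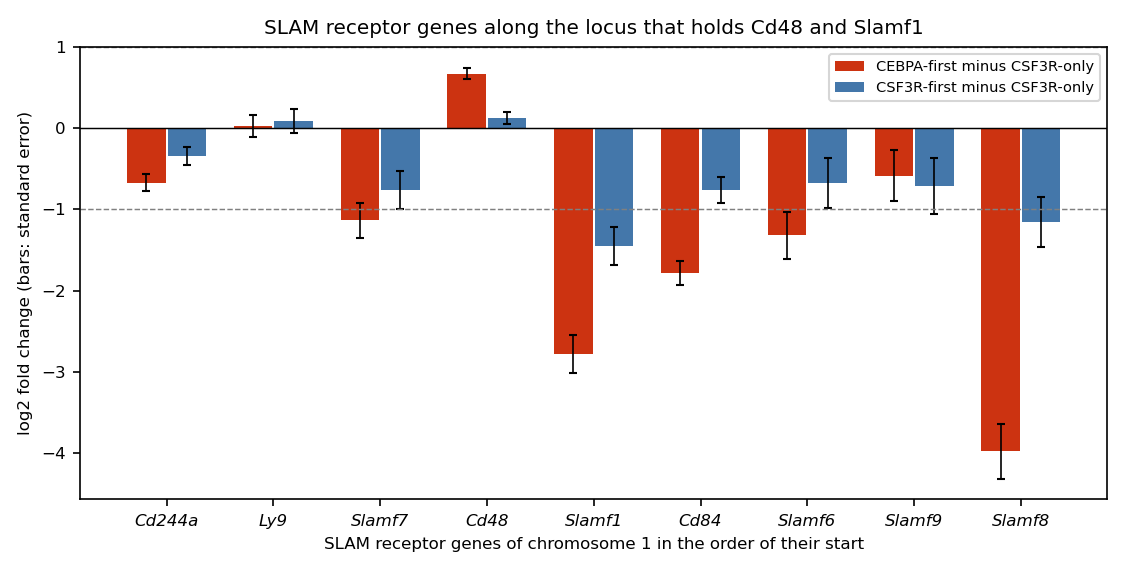
log2 fold change (vertical axis, with standard error) of the 9 SLAM receptor genes of the region in the order of their start on chromosome 1, for CEBPA-first minus CSF3R-only (red) and CSF3R-first minus CSF3R-only (blue). Genes are evenly spaced, although 522187 bases separate Slamf6 from Slamf9. Dashed lines mark the fold threshold. Cd48 and Slamf1 are neighbours, at 0.68 and -2.78 in the first comparison.

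Cd27 (chr6:125232622-125237010, - strand) encodes a receptor of the tumour necrosis factor receptor family, whose ligand is CD70. It was at 1.45, 1.78, 1.85 and 2.04 CPM in CSF3R-only, at 1.5, 3.04 and 2.32 CPM in CSF3R-first, and at 2.57, 2.56, 2.69 and 2.73 CPM in CEBPA-first. The CEBPA-first samples were tightly grouped above all CSF3R-only samples, and CSF3R-first spanned both. Cd27 differed between CEBPA-first and CSF3R-only by 0.56 ± 0.19 SE on the log2 scale (edgeR adjusted p = 0.0173; 0.0523 without CSF3R-only replicate A), under the fold threshold. The adjusted p was 0.434 for CEBPA-first against CSF3R-first (log2 fold change 0.20 ± 0.20 SE, or -0.015 without CSF3R-first replicate A). For CSF3R-first against CSF3R-only it was 0.184 (0.36 ± 0.21 SE). Leaving out each sample in turn moved this last log2 fold change between 0.11 and 0.58 and its adjusted p between 0.722 and 0.0132. The value of 0.58 (adjusted p = 0.0132) came without CSF3R-first replicate A. A microRNA gene, Mir8113, overlaps 5.54% of the exon bases of Cd27 on the same strand and had no count.

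Cd34 and Prom1 encode glycoproteins of the progenitor surface. Cd34 (chr1:194938819-194961279, + strand), a sialomucin, was at 72.0, 97, 93.6 and 92.6 CPM in CSF3R-only, at 28.9, 44.6 and 58.9 CPM in CSF3R-first, and at 16.1, 19.8, 17.8 and 17.8 CPM in CEBPA-first. No overlap was seen between the groups. Cd34 fell 4.96-fold in CEBPA-first against CSF3R-only (log2 fold change -2.31 ± 0.18 SE, edgeR adjusted p = 1.46e-07) and 2.47-fold against CSF3R-first (-1.30 ± 0.18 SE, adjusted p = 0.000132). In CSF3R-first against CSF3R-only it fell by 1.01 ± 0.18 SE on the log2 scale (edgeR adjusted p = 0.00118). That value sits at the fold threshold, and it was not called without CSF3R-only replicate B (-0.96), C (-0.98) or D (-0.99), or without CSF3R-first replicate A (-0.78). An antisense gene, Gm16897, covers 2.03% of the Cd34 exon bases and had 2 to 24 counts per sample.

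Prom1 (chr5:43993620-44102032, - strand), the gene of prominin-1 or CD133, a protein of membrane protrusions, was at 72.4, 68.4, 64.8 and 75.8 CPM in CSF3R-only, at 57.0, 59.1 and 47.7 CPM in CSF3R-first, and at 21.3, 20.8, 17.5 and 18.5 CPM in CEBPA-first. CSF3R-first lay nearer to CSF3R-only than to CEBPA-first, and the groups were separate. Prom1 fell 3.60-fold in CEBPA-first against CSF3R-only (log2 fold change -1.85 ± 0.09 SE, edgeR adjusted p = 2.63e-09) and 2.80-fold against CSF3R-first (-1.48 ± 0.09 SE, adjusted p = 2.17e-07). CSF3R-first against CSF3R-only gave -0.37 ± 0.09 SE (adjusted p = 0.00682), under the fold threshold, and -0.26 (adjusted p = 0.0535) without CSF3R-first replicate C.

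Eng and Cd93 had the smallest differences among the 8 markers that were lower in CEBPA-first. Eng (chr2:32646595-32682669, + strand), which encodes the co-receptor endoglin of TGF-beta and BMP ligands, was at 6.00, 6.27, 7.01 and 6.75 CPM in CSF3R-only, at 3.02, 4.45 and 6.11 CPM in CSF3R-first, and at 2.77, 3.44, 3.09 and 3.52 CPM in CEBPA-first. CSF3R-first overlapped both other groups, replicate A lying among the CEBPA-first samples and replicate C among those of CSF3R-only. Eng fell 2.03-fold in CEBPA-first against CSF3R-only (log2 fold change -1.02 ± 0.18 SE, edgeR adjusted p = 0.000163), a call that was lost without CSF3R-only replicate C (-0.98) or CEBPA-first replicate A (-0.95) or C (just short of the threshold). The other comparisons of Eng gave -0.50 ± 0.19 SE against CSF3R-first (adjusted p = 0.0435) and -0.52 ± 0.19 SE for CSF3R-first against CSF3R-only (adjusted p = 0.0415). When each of the 11 samples was left out in turn, either adjusted p stayed under 0.05 in 3 of 11 fits. The first value shrank to -0.23 without CSF3R-first replicate C (adjusted p = 0.307), and the second to -0.30 without CSF3R-first replicate A (adjusted p = 0.118). The gene Fpgs on the other strand shares 1.51% of the Eng exon bases.

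Cd93 (chr2:148436640-148443563, - strand), the gene of a lectin-like receptor of early progenitors, endothelium and myeloid cells, was at 192, 181, 181 and 183 CPM in CSF3R-only, at 153, 103 and 98.7 CPM in CSF3R-first, and at 111, 92.3, 109 and 84.0 CPM in CEBPA-first. CSF3R-first replicates B and C lay within the range of CEBPA-first, and all samples of both groups were below CSF3R-only. The log2 fold change of Cd93 was -0.89 ± 0.13 SE in CEBPA-first (edgeR adjusted p = 3.65e-05) and -0.64 ± 0.14 SE in CSF3R-first (adjusted p = 0.00338) against CSF3R-only, both under the fold threshold. CEBPA-first and CSF3R-first differed by -0.25 ± 0.14 SE (adjusted p = 0.151), a value that went to -0.018 without CSF3R-first replicate A (adjusted p = 0.909) and to -0.37 without replicate C (adjusted p = 0.0522).

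**Figure D3:**
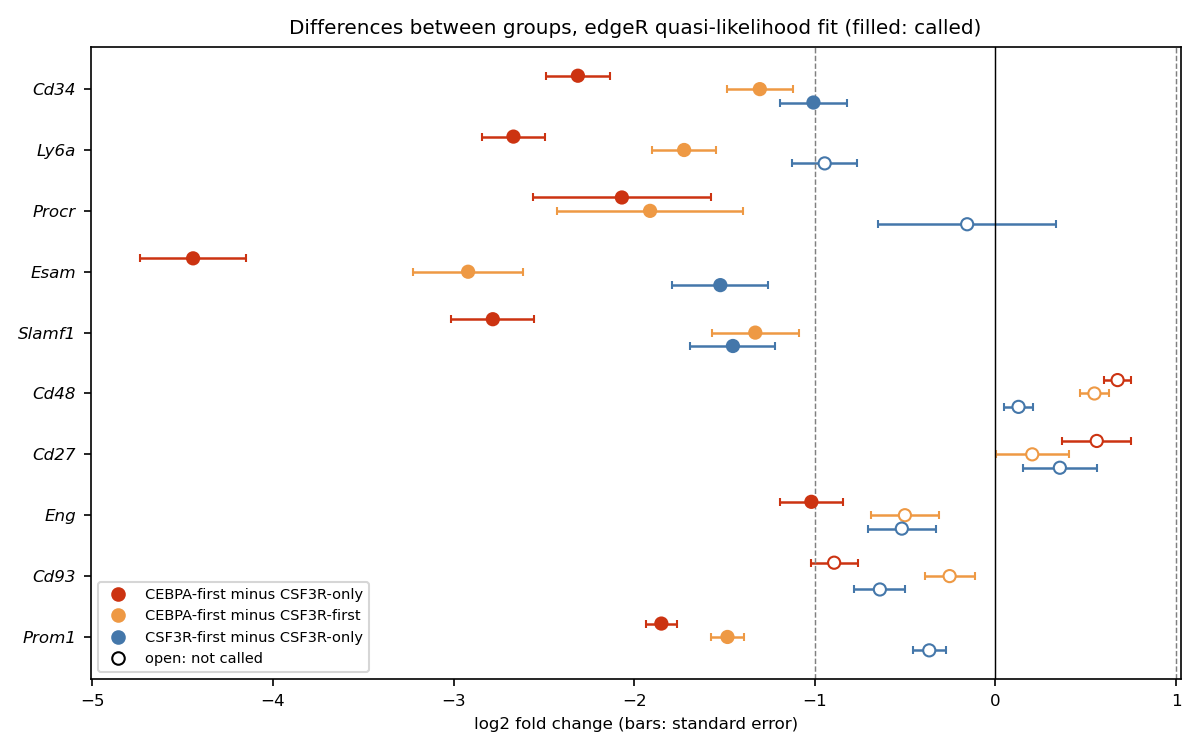
log2 fold change with standard error (horizontal axis) of the 10 markers in the 3 comparisons, from edgeR. Filled points were called (adjusted p under 0.05 and past a dashed line), open points were not. Called markers number 7 in CEBPA-first minus CSF3R-only, 6 in CEBPA-first minus CSF3R-first and 3 in CSF3R-first minus CSF3R-only, all to the left of 0.

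The comparison of mutation orders, CEBPA-first against CSF3R-first, asked whether the same oncogenes gave different marker levels when their order and vectors were exchanged. In it 6 of the 10 markers fell, Cd34, Ly6a, Procr, Esam, Slamf1 and Prom1, and 0 rose, where 10.3% of all tested genes were called lower and 2.57% higher. The median log2 fold change of the markers was -1.32, and that of all genes 0.00. By adjusted p alone 8 of the 10 differed, 7 lower and 1 higher (48.3% of all genes), and for 7 the samples of the groups did not overlap (52.2% of all genes). Late activation of CEBPA, CSF3R-first against CSF3R-only, left 3 of the 10 markers called lower, Cd34, Esam and Slamf1, and 0 higher, against 4.53% and 2.13% of all genes. The median log2 fold change was -0.58 for the markers and -0.02 for all genes. By adjusted p alone 7 differed, all lower (42.7% of all genes), and 6 had groups that did not overlap (42.1% of all genes). The 3 comparisons share their groups of samples, so they are not independent of each other. Between CEBPA-first and CSF3R-first the order, vector and length of expression of each oncogene change together and cannot be told apart. CEBPA-first differs from CSF3R-only in mutant CEBPA and also in the vector and timing of CSF3R, which cannot be separated either.

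For the 7 markers that fell in CEBPA-first, CSF3R-first was placed on a log2 scale from 0, the mean of CSF3R-only, to 1, the mean of CEBPA-first. Mean positions were 0.199 for Prom1, 0.341 for Procr, 0.347 for Ly6a, 0.372 for Esam, 0.460 for Cd34, 0.554 for Slamf1 and 0.566 for Eng. Replicate A was the nearest to CEBPA-first for Cd34 (0.699, with 0.427 and 0.252 in B and C), Esam (0.557, with 0.325 and 0.233) and Slamf1 (0.826, with 0.402 and 0.434). Eng ran from 0.0854 in replicate C through 0.534 in B to 1.08 in A. For Procr, replicate A lay outside the interval at -0.521, and B and C were at 0.766 and 0.777. The mean position of Procr was 0.773 without replicate A, 0.128 without B and 0.114 without C, and that of Eng was 0.311 without replicate A. Ly6a and Prom1 were the steadiest, with SDs of 0.0672 and 0.0893.

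**Figure D4:**
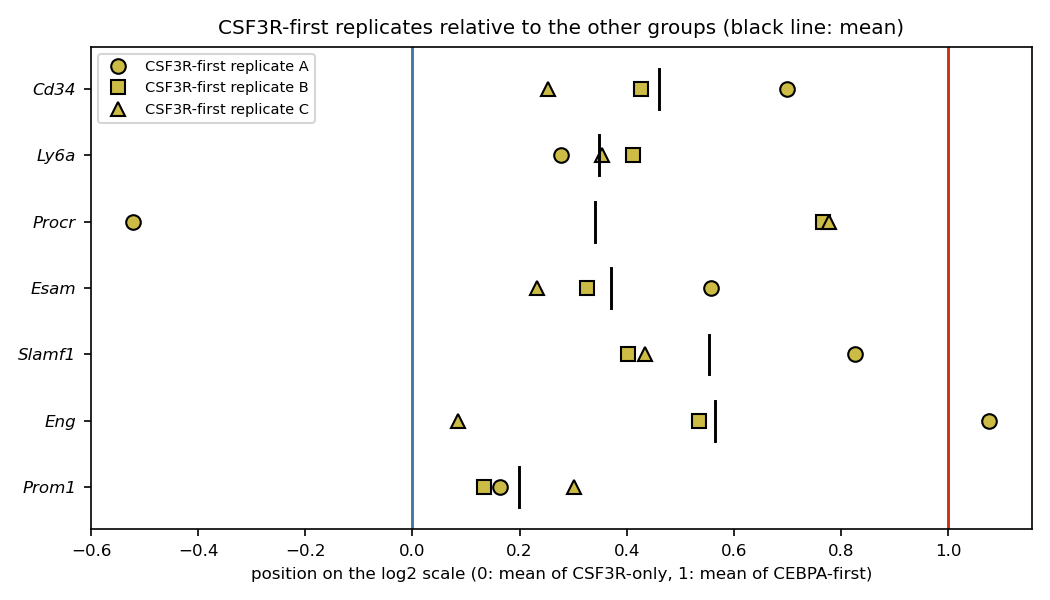
Position of each CSF3R-first replicate (symbols) and their mean (black line) on a log2 scale from the mean of CSF3R-only (0, blue line) to the mean of CEBPA-first (1, red line), for the 7 markers that fell in CEBPA-first. Most replicates lie between the lines; Procr in replicate A (-0.521) and Eng in replicate A (1.08) do not.

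Levels were compared between genes per kilobase of exon (CPM per kb). Ly6a led in CSF3R-only at 333 ± 75.9 CPM per kb (SD, n = 4), followed by Cd48 at 74.1 ± 6.76, Cd93 at 27.6 ± 0.820, Cd34 at 12.2 ± 1.56 and Prom1 at 9.81 ± 0.665. Procr, Esam, Slamf1, Eng and Cd27 ranged from 3.07 down to 0.765 CPM per kb. In that order the sample ranges of Cd34 and Prom1, of Procr and Esam, and of Slamf1 and Eng overlapped. In CEBPA-first the first place passed to Cd48, at 118 ± 6.32 CPM per kb, above Ly6a at 52.4 ± 9.73, with no overlap. Cd27, last in CSF3R-only, stood above Eng, Procr, Slamf1 and Esam in CEBPA-first, at 1.13 ± 0.0375 CPM per kb, and Esam came last at 0.135 ± 0.0319. In CSF3R-first Ly6a (173 ± 21.6), Cd48 (81.0 ± 6.18) and Cd93 (17.7 ± 4.56) kept the first places, Prom1 followed apart from Cd93, and from Cd34 downward each marker's range overlapped that of the marker above it.

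Other surface markers of stem and progenitor cells were counted in a list of 29, of which 27 could be tested. In CEBPA-first against CSF3R-only, 11 were called lower and 2 higher, with a median log2 fold change of -0.54, where all tested genes had the shares of 19.0% lower and 8.07% higher given above, which also apply to the lists that follow for this comparison. The integrin gene Itgb3 fell by 4.12 on the log2 scale (297 ± 30.5 to 17.0 ± 2.58 CPM) and the tetraspanin gene Cd9 fell by 3.09 (231 ± 13.3 to 27.2 ± 1.24 CPM). Flt3, the receptor of multipotent progenitors that long-term stem cells lack, rose by a log2 fold change of 1.5 (2.34 ± 0.557 to 6.60 ± 0.622 CPM). Ace, an angiotensin-converting enzyme, was also called higher, at 0.804 to 0.887 CPM in CEBPA-first and 0 to 0.0950 CPM in CSF3R-only. Kit, with Ly6a the other marker of the stem cell gate, was at 34.8 ± 4.81 CPM in CEBPA-first, 28.7 ± 4.69 CPM in CSF3R-first and 27.6 ± 3.33 CPM in CSF3R-only, and its log2 fold change between CEBPA-first and CSF3R-only was 0.33 (edgeR adjusted p = 0.0254). The mouse gene Csf3r fell by 2.46 on the log2 scale (846 ± 94.9 to 154 ± 16.1 CPM), and reads of the human transgene could align to it.

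**Figure D5:**
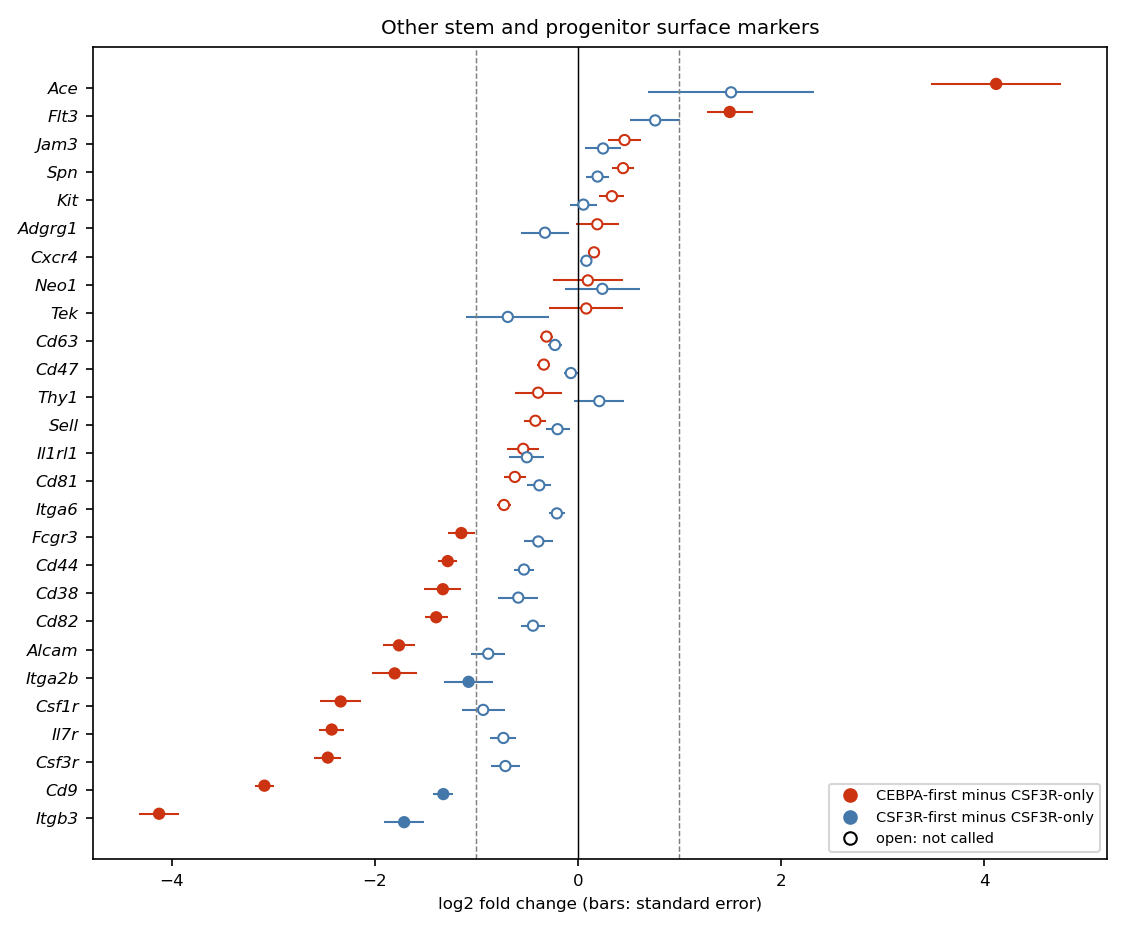
log2 fold change with standard error (horizontal axis) of the 27 tested genes among other stem and progenitor surface markers, for CEBPA-first minus CSF3R-only (red) and CSF3R-first minus CSF3R-only (blue), sorted by the first. Filled points were called: 11 lower and 2 higher in the first comparison, 3 lower and 0 higher in the second.

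Of the 27 tested genes of the same list, 5 were lower and 1 higher in CEBPA-first against CSF3R-first, where 10.3% and 2.57% of all genes were. In CSF3R-first against CSF3R-only, 3 of the 27 were lower and 0 higher, against 4.53% and 2.13% of all genes. Transcription factors of stem cells were counted as well. Of 20 in CEBPA-first against CSF3R-only, 6 rose and 2 fell, with a median log2 fold change of 0.31. Mecom rose by 6.47, Hlf by 2.26 and Myb by 1.62 on the log2 scale, all factors tied to stem cell or progenitor self-renewal, whereas Meis1, a partner of HOXA9, fell by 1.55 and Gfi1b by 1.07.

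Genes of the pathways around each marker were counted in the same way for CEBPA-first against CSF3R-only. Among genes of the LY6 and uPAR family related to Ly6a, 4 of 8 tested were lower and 1 higher. Ly6i fell by 4.63, the neutrophil antigen gene Ly6g fell by 3.66 and the complement inhibitor gene Cd59a fell by 1.59 on the log2 scale, while Lynx1 rose by 1.33. Around endoglin, 8 of 20 tested genes of TGF-beta and BMP signalling were lower and 0 higher. The endoglin partner Acvrl1 fell by 2.86, the target gene Id2 fell by 2.13 and the signal transducer gene Smad3 fell by 1.79, and the endoglin ligand genes Gdf2 and Bmp10 had no count in any sample.

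Around Procr, 4 of 9 tested genes of the protein C and thrombin system were lower and 3 higher. Pros1, encoding the cofactor protein S, fell by 2.73, the sphingosine receptor gene S1pr1 fell by 2.33 and the thrombin receptor gene F2rl2 fell by 2.01 on the log2 scale. Tfpi rose by 1.10 and the tissue factor gene F3 by 1.02, and F2rl1 reached 0.332 to 0.548 CPM from 0 to 0.0403 CPM. The gene Proc, of protein C itself, had no count in any sample. Among 9 tested junction adhesion genes related to Esam, Jam2 fell by 4.03, F11r fell by 2.36 and Clmp fell by 1.73 on the log2 scale, Tjp1 rose by 1.24, and the median was 0.31. In CD27 signalling, 4 of 11 tested genes were lower and 1 higher, where Relb fell by 3.01, Tnfrsf1b fell by 2.28 and Nfkb2 fell by 1.82 on the log2 scale, Tnfrsf9 rose by 2.26, and the ligand gene Cd70 had no count. Among relatives of CD34, CD93 and prominin-1, 3 could be tested, and the log2 fold change was -0.26 for podocalyxin (Podxl, edgeR adjusted p = 0.455), -0.46 for endosialin (Cd248, adjusted p = 0.475) and -0.32 for thrombomodulin (Thbd, adjusted p = 0.0873).

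Ly6a is itself among the genes that interferon induces, and a list of 15 other interferon-stimulated genes was counted. Of these, 7 were lower and 0 higher in CEBPA-first against CSF3R-only, among which Oas2 fell by 2.03, Isg15 fell by 1.87 and Zbp1 fell by 1.66 on the log2 scale. In CSF3R-first against CSF3R-only 5 of the 15 were lower and 0 higher, against 4.53% and 2.13% of all genes. In CEBPA-first against CSF3R-first 1 of the 15 was lower and 2 higher, against 10.3% and 2.57% of all genes. Whether the level of Ly6a moved with interferon signalling was not tested.

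Marker genes of other cells were counted in the same samples. Blood cell identity was present in every sample: Ptprc (CD45) averaged 585 CPM in CEBPA-first, 838 CPM in CSF3R-first and 1134 CPM in CSF3R-only. All 7 of 7 megakaryocyte and platelet genes, among them Itga2b, Gp9 and Pf4, were called lower when CEBPA-first was compared with CSF3R-only, and their summed level was 855 to 1161 CPM in CSF3R-only, 329 to 509 CPM in CSF3R-first and 111 to 155 CPM in CEBPA-first. Macrophage genes such as Adgre1, Csf1r and Cd68 were lower for 8 of 8, with sums of 1741 to 2299, 825 to 1539 and 331 to 527 CPM. Neutrophil genes, among them Ltf, Camp and Ngp, were lower for 9 of 10, with sums of 26403 to 32449, 14489 to 25234 and 6430 to 8559 CPM. S100a9 contributed most to this sum in CSF3R-only, and Mmp8 in CSF3R-first and CEBPA-first. Of 9 mast cell and basophil genes 5 were lower, Mcpt4 (-3.77), Tpsb2 (-2.21), Mcpt8 (-2.20), Cma1 (-2.15) and Hdc (-1.72 on the log2 scale), and 1, Fcer1a, was higher (log2 fold change 1.15), while Cpa3 (-0.67) and Ms4a2 (0.44) were not called, and the sums were 1969 to 2885, 1227 to 1457 and 1237 to 1608 CPM. Erythroid genes had 5 of 6 lower. Their part in the results for the surface markers was not tested.

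Endothelial cells, which carry most of these proteins, were checked by 11 genes. The defining marker Cdh5 had at most 1 count in any sample, Sox17 at most 1, and Emcn and Cldn5 at most 2. Of 7 tested, Tie1, Plvap and Vwf fell from CSF3R-only to CEBPA-first. The other 4, Pecam1 (0.31), Egfl7 (0.54), Kdr (0.45) and Tek (0.08), had positive log2 fold changes under the fold threshold, and the median of the list was 0.08. The summed level of 208 to 239, 163 to 197 and 170 to 191 CPM was mostly Pecam1, which blood cells share. Marrow stroma lacked Col3a1 and Cxcl12, both without a count, and had sums of 6.29 to 7.44, 7.96 to 11.3 and 18.7 to 22.6 CPM, to which Pdgfrb contributed most. Of its 4 tested genes, 2 were higher in CEBPA-first than in CSF3R-only, Col1a2 (log2 fold change 4.34, from 0.167 to 3.43 CPM) and Pdgfrb (1.60), and 1, Col1a1, was lower (-1.13). Among antigens of mature lineages, Cd3e and Cd8a had no count. Itgam averaged 450 CPM and Ly6g 45.8 CPM in CSF3R-only, 211 and 17.3 CPM in CSF3R-first, and 62.2 and 3.65 CPM in CEBPA-first. Which antigens the lineage sort used is not listed in the sources used here. The sort preceded the 48 h culture. B cell, T and NK cell genes summed to at most 6.80 and 5.68 CPM in a sample, and dendritic cell genes to 43.1 to 51.1 CPM.

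In CSF3R-first replicate A, which stood apart for Procr, the neutrophil sum was 25234 CPM and the macrophage sum 1539 CPM, compared with 14489 and 825 CPM in replicate B and 17465 and 887 CPM in replicate C. The erythroid sum was 73.1 CPM in replicate A, 134 CPM in B and 237 CPM in C, and the megakaryocyte sum 329, 350 and 509 CPM. The part of these differences in the marker levels of replicate A was not tested. Without replicate A, 4 markers (Ly6a, Procr, Esam and Slamf1) were called lower in CSF3R-first against CSF3R-only in place of 3, and 5 (Cd34, Ly6a, Esam, Slamf1 and Prom1) in CEBPA-first against CSF3R-first in place of 6.

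The genes whose log2 CPM followed each marker most closely over the 11 samples were found among 9151 genes by the root mean square difference after centring. Cd34 was followed most closely by Ptger3 and Gpc4 (both 0.17) and Agpat3 (0.19), and Ly6a by Hs3st1, Il7r and Cdh1 (each 0.20). Esam had Mylk (0.24), Rbpms2 (0.29) and Mmrn1 (0.29), and Slamf1 had Slc14a1 (0.20), Sla2 (0.21) and Rab27b (0.22). For Procr the closest genes, Cd14 (0.40), Il1rn (0.43) and Tbc1d9 (0.45), were farther away than for any other marker. Cd48 was matched by Fcgr1, Colgalt1 and Hes6 (each 0.09), Cd93 by Gng2 and Pcmtd1 (both 0.09) and Vwa5a (0.10), and Eng by Zfp385a (0.08), Bpgm (0.10) and Csf2rb2 (0.13). Prom1 had Prss16 (0.15), Mxd1 (0.18) and Gja1 (0.18), and Cd27 had Lss (0.13), Usp46 (0.14) and Clstn1 (0.14). These differences rank genes over samples that fall into 3 groups and carry no test.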

How the data were processed

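RNA-seq of 11 samples of transduced mouse bone marrow was analysed. Libraries were made with a SMARTer low-input kit, Trimmomatic was used for trimming and STAR for alignment, and what the authors deposited is a table of raw whole-number counts for each gene. The submitters' processing notes name mm10 and DESeq2. The counting tool, annotation and use of strand are not given in the sources used here. Genes were matched by Ensembl identifier to a GENCODE annotation of GRCm38, with all 10 markers found, and 23409 genes had no count.

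Counts were scaled with TMM, filtered with filterByExpr (15703 genes kept) and tested with edgeR 4.0.16 (glmQLFit and glmQLFTest, R 4.3.3) in one fit of 3 groups, following the study's pairwise comparisons and its threshold on adjusted p and fold. SE is the log2 fold change over the square root of F. CPM are TMM-scaled, and a prior count of 2 was added for log2 CPM. Near-identical stretches (at least 100 bases at 97% identity) were searched with BLAST 2.17.0. Alternatives were DESeq2 1.42.0, other scalings, filters and thresholds, only the compared groups, a replicate block, and leaving out each sample. The code was tested on simulated data. Figures were drawn with matplotlib 3.10.9.

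The 10 markers and all lists were chosen with earlier results of these data known. Named genes were the markers, at most 3 that rose and 3 that fell most per pathway list among called genes in CEBPA-first against CSF3R-only, the first 3 and the most abundant gene of each cell type list, and the 3 genes with the closest pattern per marker (average log2 CPM of at least 3). Other genes were named after their values were seen. A few list genes are not reported here and were left out of the list counts and sums.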

Additional observations from a re-analysis of the deposited data

Results flagged for a closer look

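Cd48 in CEBPA-first replicate A, at 152 CPM, lay far above the other CEBPA-first replicates, the nearest of which was at 138 CPM. Of 20 groups of 4 samples checked in this way (10 markers in CSF3R-only and CEBPA-first), it was the 1 that stood out, and chance gives about 1 in 20. The log2 fold change of Cd48 between CEBPA-first and CSF3R-only stayed between 0.64 and 0.74 when each sample was left out in turn. The CSF3R-first group of 3 was too small for this check.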

How the results depend on the processing

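The number of called markers was 7 in CEBPA-first minus CSF3R-only, 6 between the mutation orders and 3 for late CEBPA activation (CSF3R-first minus CSF3R-only). With adjusted p alone the last was 7. With glmTreat, which tests against the fold threshold itself, it was 0 (2 at unadjusted p under 0.05, Esam and Slamf1; DESeq2 and edgeR's quasi-likelihood test called 3), and CEBPA-first against CSF3R-first had 3 in place of 6 (6 at unadjusted p). The first comparison had 6 with glmTreat, Eng being lost. Leaving out each of the 11 samples gave 6 to 7, 5 to 6 and 2 to 4, and by adjusted p alone 9 to 10, 7 to 8 and 6 to 8. With all samples, 72.0%, 48.3% and 42.7% of all tested genes passed by adjusted p alone. Procr in CSF3R-first against CSF3R-only ranged from -1.60 to 0.26 and turned positive without CSF3R-first replicate B (0.24) or C (0.26), and Cd27 in CEBPA-first against CSF3R-first ranged from -0.015 (without CSF3R-first replicate A, adjusted p = 0.954) to 0.46. Its differences were not called in any of these fits, and the cause was not tested. Scaling by library size alone raised the median of all genes by 0.13 on the log2 scale in CEBPA-first against CSF3R-only; under it Eng (-0.89) and, in CSF3R-first against CSF3R-only, Cd34 (-0.91) were no longer called, and with no filter on low counts they were at -0.94 and -0.96. Cd34 was also at -0.99 with only the compared groups in the fit. With a prior count of 0.5 the mean position of CSF3R-first was 0.366 in place of 0.372 for Esam and 0.553 in place of 0.554 for Slamf1; the other 5 markers moved less.

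The labels do not say that the replicate letters pair samples, and the check did not show it, since not every pair passed a correlation of 0.1: deviations of samples with the same letter correlated at -0.11 to 0.36, and 5 of 10 correlated best with their own letter. With the replicate block, 7, 6 and 3 markers were called.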
